A study of Mus musculus with 2 samples.

Results

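Genes that Wnt signalling keeps on around the central vein were examined in wild-type and Fhl2 knockout-labelled adult mouse liver. The LIM-domain product of Fhl2 acts as a cofactor for transcription factors. The 10 members (Glul, Oat, Rhbg, Slc1a2, Axin2, Lgr5, Rnf43, Znrf3, Tbx3 and Lect2) were taken by symbol from 19938 genes on the array, and all 10 were measured, by 11 probe sets in all. Each group was 1 array of liver RNA pooled from 3 mice. Both pools came from males aged 10 to 11 weeks on a hybrid Black Swiss/129-SV/J background, and RNA was taken from the left lobe. One pool was wild-type, and the other was labelled FHL2-/- and came from a knockout line that the labels describe no further. The labels mention no treatment in either group. Nothing in the labels limits the deletion to a cell type, and the exons removed are not named.

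The values are log2 expression values, so a difference of 1 would be a doubling. With 1 array per group there is no replicate spread, no test is possible and no p-value is given. All differences are the knockout-labelled pool minus the wild-type pool and describe those pools. Pooling hides the spread between mice, and in whole tissue fewer cells of a type and less RNA per cell cannot be told apart. Where a gene has several probe sets, these read the same pools on the same arrays and do not repeat the comparison. The differences of single probe sets lay around the mean of their gene with a pooled SD of 0.143 (660 genes, 1809 probe sets). This SD holds no spread between mice, pools or arrays.

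The liver lobule runs from the portal vein to the central vein. Endothelial cells of the central vein release Wnt ligands and R-spondins. In nearby hepatocytes these stabilise beta-catenin, which with TCF factors switches on a pericentral programme. Its best known output is a narrow ring of hepatocytes that takes up ammonium and glutamate and makes glutamine. Axin2, Lgr5, Rnf43 and Znrf3 belong to the signalling pathway itself and are used as readouts of its activity.

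The members differed by role when each was read by its brightest probe set. The 4 nitrogen genes were higher in the knockout-labelled pool by 0.28 to 0.42, with a median of 0.34, while the 4 genes of the Wnt receptor and feedback module lay between 0.01 and 0.11, with a median of 0.06. The other Glul probe set, at 0.04, lay within the range of the feedback module. Tbx3 and Lect2 were at 0.20 and 0.09. The median over the 10 members was 0.15, against 0.04 over the 11924 genes whose mean level reached 5.44, the 40th percentile of all named probe sets. All 10 members passed this level filter.

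**Figure D1:**
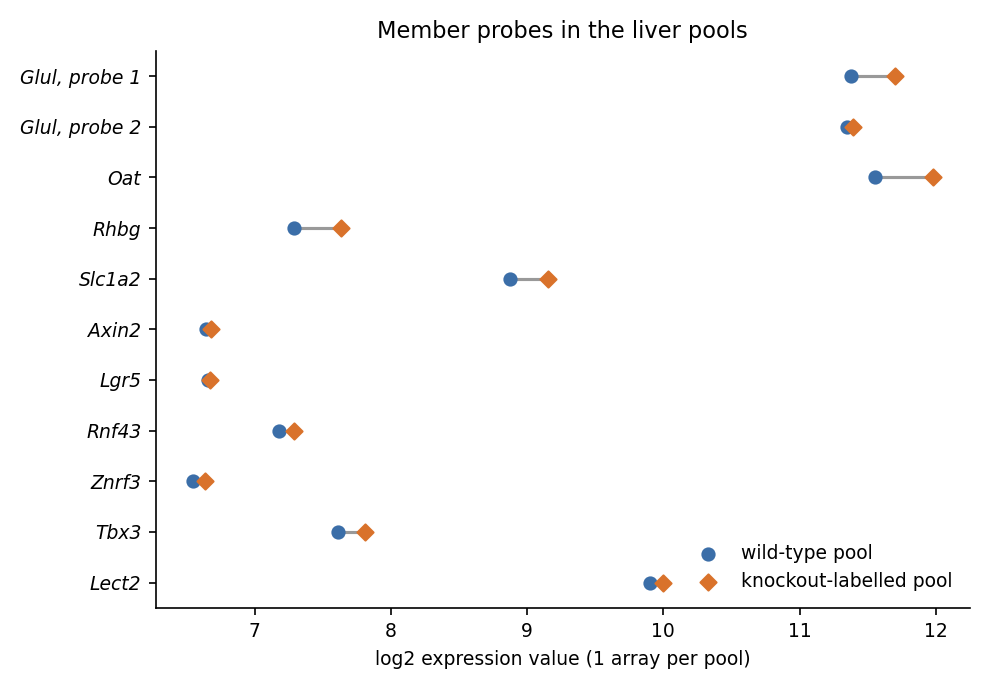
Log2 expression value (horizontal axis) of each member probe set (rows) in the wild-type pool (circles) and the knockout-labelled pool (diamonds), 1 array each, with a grey line joining the values of a probe set. The gap is widest for Oat (0.42) and is hardly visible for Axin2 (0.04), Lgr5 (0.01) and the second Glul probe set (0.04).

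At least 1.2-fold higher were 4 of the 10 members, against 8.66% of all genes past the filter. At least 1.2-fold lower were 0 members, against 6.16% of all genes. Of all genes this far apart, 1033 were higher and 734 lower (58.5% higher), or 1511 and 515 (74.6%) after a shift to a common median, which left the members at 4 and 0. At 1.5-fold 0 members were higher, a size that 0.621% of all genes reached, and at 1.1-fold 5 were, against 26.3%. All 10 members were above 0, as were 59.5% of all genes, while 40.4% of all genes were below 0. The member nearest above 1.2-fold was Slc1a2 at 1.22-fold, and the nearest below was Tbx3 at 1.15-fold. The count of 4 was 3 with the mean over probe sets, where Glul dropped out. It was also 3 after quantile normalisation and after removal of the trend on level, where Slc1a2 dropped out at 0.26 and 0.25. Of all genes, 8.59%, 7.50% and 7.57% were this much higher under these alternatives, in the same order.

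Oat encodes ornithine aminotransferase, a mitochondrial enzyme that links ornithine to glutamate and proline. Its probe set read 11.56 in wild-type liver and 11.98 in the knockout-labelled pool, a 1.34-fold higher value. Only 1.98% of genes past the filter had a higher difference.

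Rhbg, an ammonium transporter of the hepatocyte membrane, read 7.29 in wild-type liver and 7.64 in the knockout-labelled pool. This difference of 0.35 was 1.27-fold, and 3.92% of genes had a higher one. Slc1a2, a high-affinity glutamate transporter also known from astrocytes, read 8.87 and 9.16 in the same order, a difference of 0.28. A higher difference was found for 7.34% of genes. Of 6 neural markers, 4 were below the level filter. These were the astrocyte genes Gfap and Aqp4 at 0.03 and -0.05, and Snap25 and Rbfox3 at -0.04 and -0.33. The other 2 were past it, the synaptic gene Syt1 at 0.38 and the aldolase gene Aldoc at 0.11. The median difference of all 6 was -0.0079. The summed linear values of the 6 were 1.09 times those of the wild-type pool, and their part in the Slc1a2 difference was not tested.

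Glul encodes glutamine synthetase, which joins ammonium to glutamate and marks the innermost ring of hepatocytes. Its 2 probe sets did not give the same difference. The brighter one read 11.38 in wild-type liver and 11.70 in the knockout-labelled pool (0.33, or 1.25-fold), and the other read 11.35 and 11.39 (0.04, or 1.03-fold). The gap between their differences was 0.28. The SD of 0.143 is that of 1 probe set around its gene mean, and a gap between 2 probe sets spreads more widely than that. The platform annotation lists 3 sequence accessions under both. In the order of probe set identifiers, in which 94.3% of consecutive named probe sets lie on the same chromosome, the brighter one stands between Teddm1a and Zfp648 on chromosome 1, where Glul lies. The other stands between C1d and Spred2 on chromosome 11. RefSeq (GRCm38.p6) places Glns-ps1, a glutamine synthetase pseudogene, on chromosome 11 between Meis1 and Spred2. Whether the second probe set reads RNA of Glul, of the pseudogene or of both was not tested, so the size of the Glul difference is uncertain.

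Nitrogen genes outside the members were taken from a list of enzymes and transporters for glutamine, glutamate and proline. Of its 13 symbols 9 had a probe set with 1 gene. All 9 passed the level filter, with a median of 0.21, and all 9 were above 0, against 59.5% of all genes. At least 1.2-fold higher were 2 of the 9 (8.66% of all genes). The count was 4 after a shift to a common median (12.7% of all genes). It was 3 after quantile normalisation (7.50%) or removal of the trend on level (7.57%). Got1, the cytosolic aspartate aminotransferase, was at 0.59 (10.76 and 11.35) and was the only one past 1.5-fold. Slc38a2, a glutamine and alanine carrier, was at 0.41 (9.61 and 10.02). Both are named because of their values. Around Oat, the proline enzymes Prodh and Aldh4a1 were at 0.23 and 0.21, and Aldh18a1, which starts proline synthesis, was at 0.26 from a dim 5.53. The glutamine carrier Slc38a3 was at 0.20. Glutamate dehydrogenase Glud1 was at 0.06, close to the median of all genes.

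The receptor and feedback genes differed little between the pools. Axin2, Lgr5 and Znrf3 were the dimmest members, at level percentiles of 59.6, 59.6 and 58.6, so a filter at the 60th percentile leaves them out. Whether their low level limits their differences was not tested. Axin2, a scaffold of the beta-catenin destruction complex that Wnt signalling itself induces, read 6.64 in wild-type liver and 6.68 in the knockout-labelled pool. Lgr5, a receptor for R-spondins, read 6.66 and 6.67, and its difference of 0.01 became -0.0047 when the trend on level was removed. For Axin2 and Lgr5, 50.7% and 56.9% of genes had a higher difference, which puts both in the middle of the array.

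Rnf43 and Znrf3 encode ubiquitin ligases that remove Frizzled receptors from the cell surface and are held back by R-spondins. Rnf43 read 7.18 in wild-type liver and 7.29 in the knockout-labelled pool (0.11), and Znrf3 read 6.55 and 6.64 (0.09). Higher differences were found for 33.4% and 38.0% of genes. All 4 genes of this module lay within 0.143, the SD of probe sets around their gene mean. That SD does not measure a spread between pools, so it cannot tell whether the pools differed.

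Tbx3, a T-box transcription factor and a target of beta-catenin in liver, read 7.61 in wild-type liver and 7.81 in the knockout-labelled pool. Its difference of 0.20 was 1.15-fold, and 16.0% of genes had a higher one. Lect2, a protein that hepatocytes secrete and another beta-catenin target, read 9.91 and 9.99, a difference of 0.09. Tbx3 thus lay between the nitrogen genes and the feedback module, and Lect2 lay among the latter.

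The spread of differences depends on level, so each member was also set against genes of its own level, in 10 equal bins of genes past the filter. Oat, Glul, Rhbg and Slc1a2 lay above the 95th percentile of their bins, and the other 6 members did not. That percentile was 0.24 for the bin of Oat and Glul, 0.33 for that of Rhbg and 0.25 for that of Slc1a2. Rhbg at 0.35 was thus only just above it. Axin2 and Lgr5 were the members below the median of their bin, which was 0.04.

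**Figure D2:**
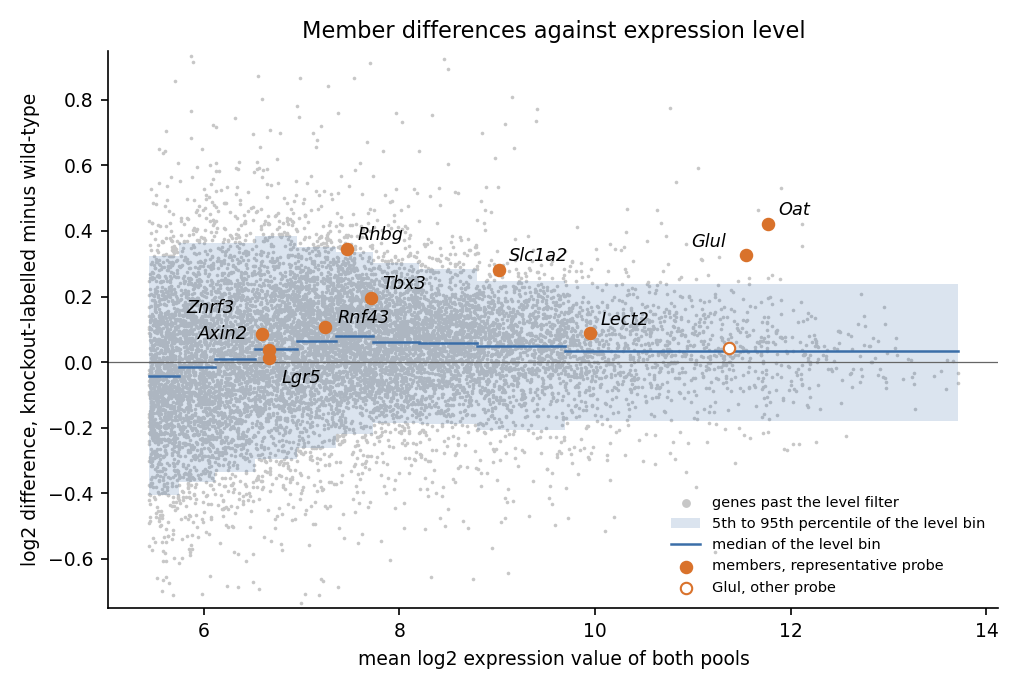
Log2 difference, knockout-labelled minus wild-type pool (vertical axis), against the mean log2 value of both pools (horizontal axis). Grey points are genes past the level filter (20 lie outside the plotted range), bands span the 5th to 95th percentile of each of 10 level bins, lines are bin medians, filled points are members and the open point is the other Glul probe set. Oat, Glul, Rhbg and Slc1a2 lie above the band, and the open Glul point lies at 0.04, near the bin median of 0.03.

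Ligands and receptors of the pathway come from lists by role. Of 25 Wnt ligand, R-spondin and Wnt secretion genes, 14 passed the level filter, with a median of -0.05. Above 0 were 5 of the 14, against 59.5% of all genes. At least 1.2-fold higher were 0 and lower 2 of the 14 (8.66% and 6.16% of all genes). After a shift to a common median the median was -0.0068, with 7 above and 7 below 0 and 1 past 1.2-fold in each direction. Of the 11924 genes, 69.2% were then above 0, and 1511 were at least 1.2-fold higher and 515 lower. Most of the 14 were dim, and all genes in level bins 1, 2 and 3, the dimmest, had medians of -0.04, -0.01 and 0.01. With the trend on level removed the list median was -0.03, with 5 of the 14 above 0 (56.1% of all genes). At least 1.2-fold higher were then 0 and lower 1, against 903 and 743 of the 11924 genes. The ligand Wnt2 and the R-spondin gene Rspo3, both made by central vein endothelium, were higher by 0.19 (6.37 and 6.56) and 0.22 (6.28 and 6.50). Wnt9b, the other Wnt ligand of this endothelium, was at -0.02 (6.44 and 6.43). Wls, which carries Wnt proteins to the cell surface, was at 0.09. Of the 7 markers taken for central vein endothelium, 3 were above 0 (Wnt2, Rspo3 and Kit), against 59.5% of all genes. The other 4 were below 0 (Wnt9b, Thbd, Cdh13 and Lhx6). After a shift to a common median 5 of the 7 were above 0, against 69.2% of all genes.

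Of 17 receptor genes 15 passed the filter, with a median of 0.04, the same as that of all genes to 2 decimals. Past 1.2-fold in either direction were 0 of the 15, against 8.66% and 6.16% of all genes. The co-receptors Lrp5 and Lrp6 were at 0.04 and 0.17, and Lgr4, the relative of Lgr5 found throughout the lobule, was at 0.16. The Frizzled receptors Fzd4 and Fzd5 were at 0.01 and 0.08, and Fzd7 and Fzd8 at -0.14 and -0.16.

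Inside the cell, all 16 genes of the destruction complex and its regulators passed the filter, with a median of 0.09. Past 1.2-fold higher or lower were 0 of the 16, against 8.66% and 6.16% of all genes. The tumour suppressor Apc was at 0.11, Axin1, the constitutive relative of Axin2, at 0.04, the kinases Csnk1a1 and Gsk3b at 0.11 and -0.06, and the ubiquitin ligase subunit Btrc at 0.15. The beta-catenin gene Ctnnb1 read 9.74 in wild-type liver and 9.84 in the knockout-labelled pool (0.10), and its partner Tcf7l2 read 7.62 and 7.71 (0.09). Of the 15 genes for beta-catenin, TCF factors and cofactors, 12 passed the filter, with a median of 0.11. The beta-catenin cofactors Bcl9 and Bcl9l were at 0.02 and 0.24, and Lef1 was below the filter. The co-repressor Tle1, named because of its value, was at 0.43 and was the 1 of the 12 at least 1.2-fold higher (8.66% of all genes). After a shift to a common median 3 of the 12 were this much higher, against 12.7% of all genes.

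Wnt inhibitors were mostly dim, with 7 of 18 past the filter. Their median was 0.04, or -0.0062 with the trend on level removed. At least 1.2-fold lower were 3 of the 7 (6.16% of all genes) and higher 0 (8.66%). After a shift to a common median 2 were lower and 1 higher, against 515 and 1511 of the 11924 genes. The 3 lower without the shift were Apcdd1 at -0.35 (5.93 and 5.58), Kremen2 at -0.32 (5.85 and 5.54) and Sost at -0.28 (6.35 and 6.07). All 3 were dim, and none lay below the 5th percentile of genes of its own level. That percentile was -0.37, -0.41 and -0.33 for their level bins, in the same order. Notum and Nkd1, feedback inhibitors that Wnt signalling can induce, were at 0.04 (7.92 and 7.96) and 0.23. Dkk3 was at 0.20, from 5.48. Sp5, another gene that Wnt signalling can induce, was below the filter at 5.10 and 4.64.

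Pericentral genes outside the members asked whether the zone as a whole differed. Of 17 such genes 16 were measured and 15 passed the filter, with a median of 0.06. At least 1.2-fold higher were 2 of the 15 (8.66% of all genes). The count was 3 after a shift to a common median (12.7% of all genes), quantile normalisation (7.50%) or removal of the trend on level (7.57%). The cytochrome Cyp2e1 was at 0.05 and Cyp1a2 at -0.0007. Ahr, the receptor that controls Cyp1a2, was at 0.03, the vasopressin receptor Avpr1a at -0.0046 and the dicarboxylate carrier Slc13a3 at 0.06. The vitamin C enzyme Gulo was at 0.26, the nuclear receptor gene Nr1i3 (CAR) at 0.18 and the retinal dehydrogenase Aldh1a1 at 0.14. Lhpp, a phosphatase named because of its value, was at 0.62 (1.54-fold) and was the only one past 1.5-fold. The other past 1.2-fold was Cyp7a1, which starts bile acid synthesis from cholesterol, at 0.53.

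Genes of the opposite, periportal end had a median of 0.05 over 13 measured genes of 16. Above 0 were 8 of the 13 (61.5%), against 59.5% of all genes. At least 1.2-fold higher were 2 of the 13 and lower 0 (8.66% and 6.16% of all genes). The urea cycle entry enzyme Cps1 was at 0.07, the histidine ammonia-lyase Hal at 0.06, Cyp2f2 at 0.02, the lipid droplet enzyme Hsd17b13 at -0.10 and the cadherin Cdh1 at -0.09. The genes past 1.2-fold were G6pc, the last enzyme of glucose release, at 0.53, and Pck1, which drives gluconeogenesis, at 0.42, the same to 2 decimals as Oat. The lowest was the urea cycle enzyme Arg1 at -0.21. A difference of this size was therefore seen at either end of the lobule.

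Family relatives of the members are mostly dim in liver, and 5 of 14 passed the filter, with a median of -0.08. The neutral amino acid exchanger Slc1a4, a relative of Slc1a2, was at -0.20, and the ammonium transporter Rhcg, a relative of Rhbg, was below the filter.

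**Figure D3:**
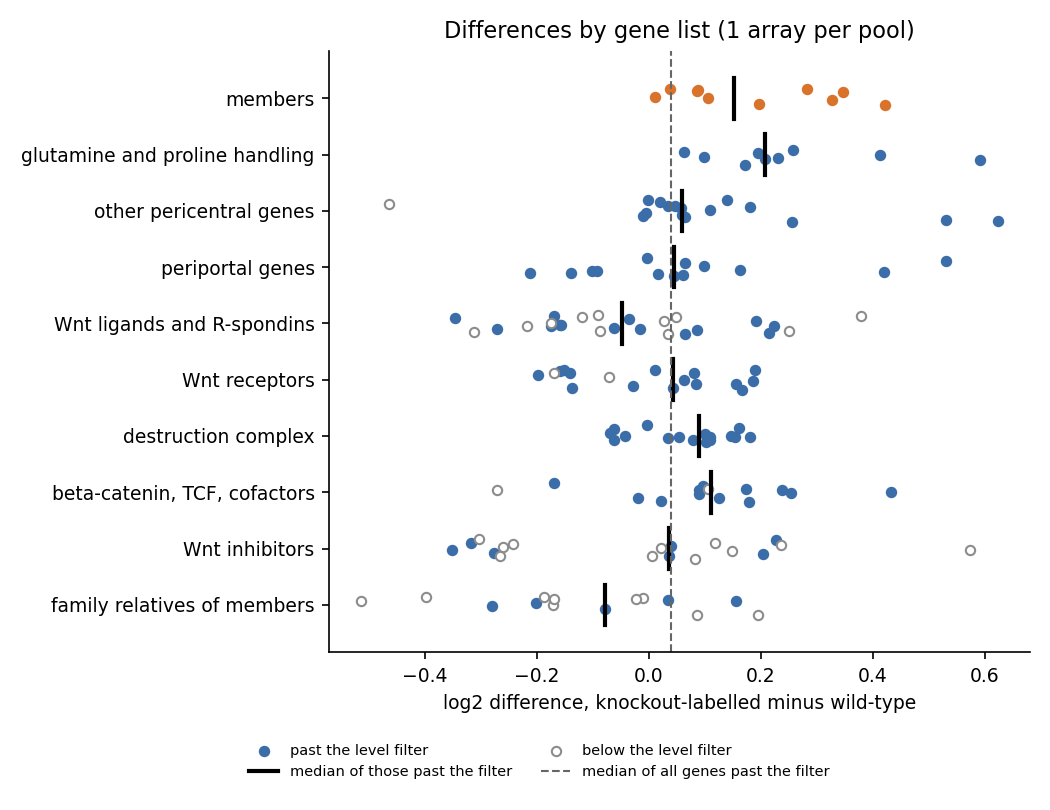
Log2 difference, knockout-labelled minus wild-type pool (horizontal axis), of every measured gene of 10 lists (rows). Filled points passed the level filter, open points did not, black bars are medians of the filled points and the dashed line is the median of all genes past the filter (0.04). The glutamine and proline list (median 0.21) and the members (0.15) lie to the right of the line, and the ligand list (-0.05) to its left.

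The promoters of the members were searched for the TCF motif, the letters CTTTG followed by AA, AT, TA or TT, on either strand. RefSeq windows of 300 bases, from 250 before to 50 after a transcript start (GRCm38.p6), were found for 6 of the 10 genes, 7 windows in all. Matches lay in 2 of the 7, those of Slc1a2 and Lect2, and in 16.9% of all 32851 windows. Both were ATCAAAG, the reverse complement of CTTTGAT, starting 207 bases before the Slc1a2 start and 32 before the Lect2 start. The windows of Glul, Oat, Axin2 and Rnf43 had no match, which says only that these letters are not in them. The 120-base stretches below show the matches of Slc1a2 and Lect2 in capitals, with Glul, the classical marker of the zone, for comparison.
Slc1a2: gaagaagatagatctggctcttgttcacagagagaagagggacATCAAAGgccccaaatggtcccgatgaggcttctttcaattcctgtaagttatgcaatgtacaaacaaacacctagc
Lect2: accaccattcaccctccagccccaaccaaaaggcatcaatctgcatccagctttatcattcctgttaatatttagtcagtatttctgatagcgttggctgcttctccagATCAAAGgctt
Glul: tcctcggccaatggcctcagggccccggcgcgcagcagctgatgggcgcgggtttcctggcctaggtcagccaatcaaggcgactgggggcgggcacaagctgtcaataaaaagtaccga
They lie at chr2:102706188-102706307 on the plus strand, chr13:56548560-56548679 on the minus strand and chr1:153899809-153899928 on the plus strand. The Slc1a2, Lect2 and Axin2 windows, and an Rnf43 window, belong to starts inside the RefSeq span of the gene, not at its outer end. The Glul stretch ends at the base before its start. The difference was 0.28 for Slc1a2 and 0.09 for Lect2, so the genes with a match stood at different places in the order of members, and a match is a description of the letters only.

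Facts of the whole comparison frame these values. The array medians were 5.76 in wild-type liver and 5.71 in the knockout-labelled pool. Fhl2 itself read 5.30 and 5.33 from 1 probe set, below the level filter, and since the deleted exons are not named this checks nothing. The hepatocyte marker Alb read 13.74 and 13.67. Of all genes past the filter, 59.5% were above 0 and 40.4% below, or 69.2% above after a shift to a common median. Of 8 hepatocyte markers 6 were below 0, and 4 after that shift. All 7 Kupffer cell and macrophage markers were below 0, from -0.40 for Adgre1 to -0.0025 for Timd4, with a median of -0.28. After that shift 5 of the 7 were below 0. The summed linear values of the 7 were 0.867 times those of the wild-type pool, and none of the 7 was below the level filter. Sinusoidal endothelial markers were above 0 in 5 of 6, and in all 6 after that shift. The part of these cell type markers in the member differences was not tested.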

How the data were processed

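Liver RNA of the wild-type and the knockout-labelled pool was hybridised to 1 Affymetrix array each, from 300 ng of total RNA per pool. The values are log2 expression values per probe set as deposited by the authors. Affymetrix Expression Console 1.0, Partek 6.4 and RMA are listed in the submitters' processing notes, and their roles are not. The deposited columns do not share 1 distribution (medians 5.76 and 5.71), so the differences depend on the scaling. Neither settings nor build is given in the sources used here. The table has no detection calls.

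Of 28853 probe sets, 21789 had 1 gene symbol in the platform annotation, 1621 had several and 5443 had none. Only those with 1 symbol were named, and a gene was represented by its probe set with the highest mean. Named are the members, Fhl2, genes marked in the lists by role, and list genes past 1.5-fold. Slc38a2, Tle1, Cyp7a1, G6pc, Arg1, Apcdd1, Kremen2, Sost, Kit, Adgre1, Alb, Gfap, Aqp4, Syt1 and Aldoc were added after their values were seen. So were Snap25, Rbfox3, Thbd, Cdh13, Lhx6 and Timd4. Members and lists were chosen with earlier results of these data known. Calculations used Python 3.11.15, pandas 2.3.3 and statsmodels 0.14.6 and were tested on simulated data. Alternatives were a common median, quantile normalisation, lowess (span 0.3), the mean over probe sets, no level filter or one at the 60th percentile, and folds of 1.1 and 1.5.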

Additional observations from a re-analysis of the deposited data

How the results depend on the processing

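No paired analysis was possible because each group holds 1 array. The median over the members ran from 0.11 to 0.28 under other scalings, probe rules and filters, the highest over the 7 members past a level filter at the 60th percentile, and was 0.10 with the other Glul probe set, an alternative added after its value was seen. The count at least 1.2-fold higher was 3 to 4 under these, where the share of all genes ran from 7.50% to 12.7%. It was 5 at 1.1-fold and 0 at 1.5-fold, against 26.3% and 0.621% of all genes. With the trend on level removed, Lgr5 turned to -0.0047 and the median of the Wnt inhibitors to -0.0062. With the filter at the 60th percentile the median of the family relatives turned to 0.096 over 2 genes, and that of the ligand list went to -0.35, which is 1 gene, since fewer genes are counted. A common median raised the share of higher genes among all those 1.2-fold apart from 58.5% to 74.6%. The number of arrays limits the precision throughout.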
